A study of Mus musculus with 28 samples.

Results

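Neurotrophins are secreted proteins that keep peripheral neurons alive and guide their axons, and fat is reached by sympathetic nerves that release noradrenaline onto adipocytes. The genes described are 7 neurotrophin, Schwann cell and innervation genes, out of 55891 gene identifiers in the white and brown fat tables. They are the receptors Ntrk3, Ntrk2 and Ngfr, the ligand Bdnf, the glial genes S100b and Sox10, and Th. The set was drawn up by name, with the observation that Ntrk3 was lower in the knockout libraries of inducible subcutaneous white fat (isWAT). The set was thus chosen by the isWAT values of Ntrk3, so values of that comparison are given as a description without a test, and 0.00701% of all genes passed in it.

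Bulk RNA-seq of adipose tissue was compared between Fgf13 knockout and control mice in 28 libraries, 13 knockout and 15 control. Fgf13 belongs to the fibroblast growth factor homologous factors, which stay inside the cell and bind voltage-gated sodium channels. Inducible knockout was profiled in epididymal fat (ieWAT, 3 knockout and 3 control libraries) and subcutaneous fat (isWAT, 2 and 3). Constitutive knockout was profiled in subcutaneous fat (sWAT, 3 and 3) and brown fat (BAT, 2 and 3). All these mice, controls included, were obese after 20 weeks of high fat feeding. A further epididymal set (eWAT, 3 and 3) carries the same knockout and wild type labels, with no statement of knockout type or diet. The series names the line as an adipose deletion, and its sources used here leave out the driver of the deletion, the age, the strain and the sex. Separate animals are not stated for the libraries within a group, so p-values measure only the spread among these samples, which may be technical.

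Library totals ran from 13490948 to 48812592 reads in the 4 obese sets, whose values are CPM (reads scaled to the library total), and are unknown for eWAT, whose values are FPKM. Fgf13 was below every control library in every knockout library of the 4 CPM sets, with means of 27.1 ± 5.61 against 44.3 ± 6.26 CPM in ieWAT, 33.3 ± 2.83 against 60.3 ± 8.18 CPM in isWAT, 63.2 ± 20.5 against 110 ± 3.63 CPM in sWAT and 1.06 ± 1.15 against 9.07 ± 7.62 CPM in BAT (knockout, then control; SD; n = 2 knockout libraries in isWAT and BAT, otherwise 3 a group). In eWAT it averaged 22.6 ± 4.76 FPKM in libraries labelled knockout and 20.3 ± 7.39 FPKM in control libraries (n = 3 each), and the groups overlapped, so eWAT directions rest on labels that Fgf13 does not bear out. The adipocyte marker list (7 genes, mean of log2(value + 1)) lay between 8.40 and 11.61 in all 28 libraries. The brown adipocyte list (5 genes) lay between 8.49 and 9.21 in BAT libraries and between 0.95 and 3.29 in white fat libraries. In bulk tissue, fewer cells of a type and less RNA per cell cannot be told apart.

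Neurotrophins act through the Trk receptor kinases and through the p75 receptor. Ntrk3 encodes TrkC, the receptor of neurotrophin-3, Ntrk2 encodes TrkB, the receptor of BDNF and neurotrophin-4, and Ngfr encodes p75, which binds all neurotrophins and is also carried by immature and repair Schwann cells. Sox10 is the transcription factor that Schwann cells need throughout their development, and S100b is a calcium-binding protein used as a Schwann cell and astrocyte marker. In mice, S100b is also made by brown adipocytes and promotes their sympathetic innervation. Th encodes tyrosine hydroxylase, the rate-limiting enzyme of noradrenaline synthesis. Its mRNA is made mostly in the cell bodies of sympathetic ganglia, which lie outside the fat depots. TrkB and TrkC each have forms with the kinase domain and truncated forms without it, and the gene-level values used here do not separate them.

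All 7 genes were located in GENCODE M21 on GRCm38 by Ensembl identifier, since the sources used here do not give the authors' build. Ntrk3 (ENSMUSG00000059146) spans chr7:78175959-78738012 on the minus strand, with 20 annotated transcripts of which 6 are coding. Ntrk2 (ENSMUSG00000055254) spans chr13:58806569-59133970 on the plus strand, with 10 transcripts and 7 coding. Ngfr (ENSMUSG00000000120) lies at chr11:95568818-95587735 on the minus strand, Bdnf (ENSMUSG00000048482) at chr2:109674700-109727007 on the plus strand, S100b (ENSMUSG00000033208) at chr10:76253853-76261159 on the plus strand, Sox10 (ENSMUSG00000033006) at chr15:79154908-79165240 on the minus strand and Th (ENSMUSG00000000214) at chr7:142892752-142931128 on the minus strand. The 3′ end of S100b overlaps Dip2a on the opposite strand, and Ntrk3, Ntrk2 and Bdnf overlap noncoding genes. Whether reads were counted by strand is not given, so the counts of overlapping genes are uncertain to that extent.

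The filter for the fit (the smaller group's number of libraries must reach a value of 1) was passed by 5 of the 7 genes for ieWAT, by 6 for isWAT, by 5 for sWAT, by 4 for BAT and by 2 for eWAT. With limma on log2(value + 1), none of them passed Benjamini-Hochberg adjustment over all genes tested in ieWAT, sWAT, BAT or eWAT. Over all genes, 0.0% passed in ieWAT, 0.0217% in sWAT, 0.00755% in BAT and 14.9% in eWAT. At an unadjusted p under 0.05 there were 0 of these genes in ieWAT, 1 in sWAT (S100b), 1 in BAT (Ntrk3) and 1 in eWAT (Ntrk2), against 2.62%, 9.66%, 19.2% and 33.9% of all genes tested. On recovered whole reads, edgeR called 0 of these genes in ieWAT, sWAT and BAT, where it called 0.0%, 0.00724% and 0.0% of all genes. DESeq2 called 0 of them in ieWAT, 0 in sWAT and 1 in BAT (Ntrk3), where it called 0.218%, 0.377% and 5.98% of all genes. All changes are differences of knockout minus control in log2(value + 1), except those of edgeR and DESeq2. Those are log2 fold changes fitted to the recovered reads, so they are not on the same scale.

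For Ntrk3, knockout values lay below control values in ieWAT and above them in constitutive BAT, and the groups overlapped in sWAT and eWAT. The isWAT knockout values were also below, but they chose the gene, so their direction was fixed by that choice. In isWAT, the comparison that chose it, it had 3.79 and 3.05 CPM in the knockout libraries, against 12.8, 14.6 and 8.87 CPM in the control libraries. The knockout libraries held 127 to 143 reads of the gene and the control libraries 433 to 561. The 2 groups lay far apart, and the knockout mean was 0.283 of the control mean (log2 difference -1.55). Of all genes tested in isWAT, 19.4% had every knockout library below every control library.

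In ieWAT, the other inducible set, Ntrk3 had 4.74, 4.12 and 4.03 CPM in knockout libraries, against 7.58, 5.61 and 5.10 CPM in control libraries. Each knockout library was below each control library, as for 1.68% of all genes tested there. The log2 change was -0.41 (SE 0.18, n = 3 each) and did not pass with limma (adjusted p = 1.00, unadjusted p = 0.0561). The exact two-sided permutation p was 0.1, the smallest this design allows. Lymphocyte markers also differed between these libraries. Their 8-gene list averaged 4.39, 3.77 and 4.48 in knockout libraries and 3.93, 2.68 and 2.41 in control libraries, which overlapped. Among them, 2 of 8 genes were higher in every knockout library, as were 3.43% of all genes tested there. The part of these markers in the result was not tested.

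In constitutive BAT the values lay the other way. BAT had 175 and 113 CPM of Ntrk3 in knockout libraries, against 79.2, 78.4 and 67.6 CPM in control libraries. Both knockout libraries were above all control libraries, as for 6.37% of all genes tested in BAT. The ratio of means was 1.92 and the log2 change 0.90 (SE 0.20; 2 knockout and 3 control libraries), which did not pass with limma (adjusted p = 0.237) or edgeR and passed with DESeq2 (log2 change 1.14, adjusted p = 0.000747). Without 1 library at a time the change ran from 0.59 to 1.22. In BAT the median of all genes was -0.18, and TMM scaling moved it by 0.19. Relative to that median the change of Ntrk3 was 1.08.

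The BAT libraries also differed in their cell type markers. The macrophage list (5 genes) averaged 3.40 and 3.44 in knockout libraries against 5.99, 4.59 and 6.51 in control libraries, with 5 of 5 genes below every control library. The fibroblast and progenitor list (8 genes) averaged 4.53 and 5.03 in knockout libraries against 6.08, 5.23 and 6.50 in control libraries, with 5 of 8 genes below. Over all genes tested in BAT, 38.1% were below every control library. The skeletal muscle list (6 genes) stood at 0.19 and 9.38 in knockout libraries and at 5.54, 7.09 and 0.68 in control libraries. The part of these cells in the Ntrk3 value was not tested.

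In sWAT, Ntrk3 had 11.2, 4.26 and 3.21 CPM in knockout libraries, against 3.06, 4.60 and 2.94 CPM in control libraries. Only the first knockout library stood clear of the controls, and the other two lay among them. The change of 0.53 (SE 0.40, n = 3 each) did not pass with limma (adjusted p = 0.680), and it was 0.072 without the first knockout library. The sWAT libraries also differed in other markers. The skeletal muscle list (6 genes) stood at 1.05, 6.97 and 7.41 in knockout libraries and at 1.16, 1.10 and 0.95 in control libraries. Muscle markers were thus low in the first knockout library and in all control libraries. The endothelial list (7 genes) averaged 7.23, 6.90 and 6.88 in knockout libraries and 7.27, 7.28 and 7.28 in control libraries. Of its genes, 4 of 7 were below every control library, as were 12.3% of all genes tested in sWAT. The part of these cells in the sWAT values was not tested. In eWAT, Ntrk3 was near the filter, with 0.684, 1.01 and 0.835 FPKM in knockout libraries and 1.22, 0.719 and 0.442 FPKM in control libraries. These overlapped (log2 difference 0.058, exact two-sided permutation p = 0.9).

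**Figure D1:**
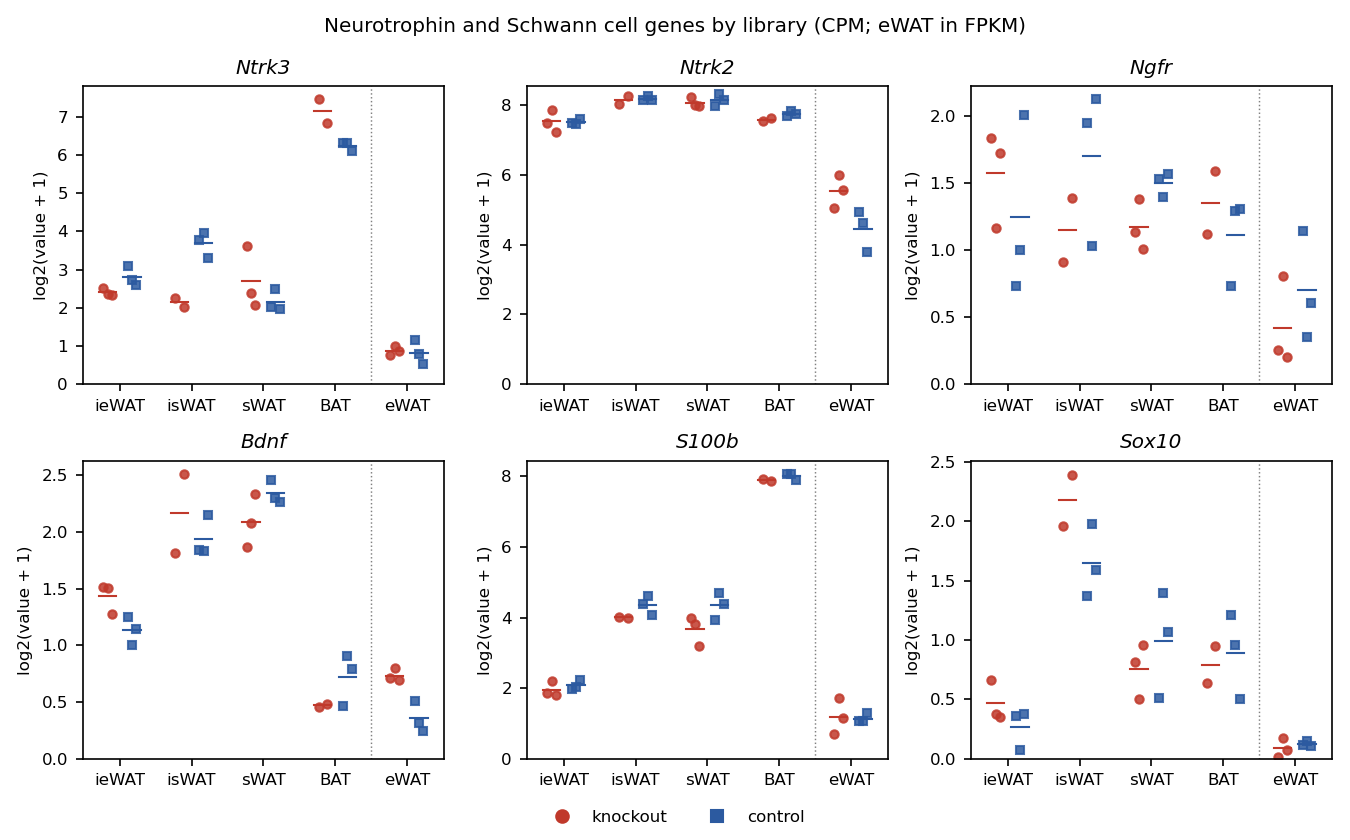
Each point is 1 library, by gene and depot set, with knockout left of control, a short line at the group mean and the value as log2(value + 1), in CPM for ieWAT, isWAT, sWAT and BAT and in FPKM for eWAT. Ntrk3 in BAT stands at 175 and 113 CPM in knockout libraries above 67.6 to 79.2 CPM in control libraries, while in isWAT it stands at 3.05 to 3.79 CPM in knockout libraries below 8.87 to 14.6 CPM in control libraries. Th is not drawn.

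Ntrk2 was at a similar high level in all 4 CPM sets. In ieWAT it had 178, 233 and 149 CPM in knockout libraries and 177, 174 and 194 CPM in control libraries (log2 change 0.015, SE 0.17). In sWAT it had 296, 252 and 247 CPM in knockout libraries and 249, 317 and 279 CPM in control libraries (change -0.083, SE 0.11, limma adjusted p = 0.825). In isWAT it had 258 and 303 CPM in knockout libraries and 280, 306 and 283 CPM in control libraries. The groups overlapped in all 3 sets.

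In BAT, Ntrk2 had 186 and 195 CPM in knockout libraries, below the 203, 224 and 213 CPM of all control libraries, as did 38.1% of all genes tested there. The change of -0.16 (SE 0.10, limma adjusted p = 0.380) was close to the median of all genes, and its direction flipped with TMM scaling (0.044).

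The eWAT set was the exception for Ntrk2. It had 32.1, 62.5 and 45.9 FPKM in knockout libraries, against 29.8, 23.6 and 12.7 FPKM in control libraries. Each knockout library was above each control library, as for 21.6% of all genes tested in eWAT, and the lowest knockout library lay next to the highest control library. The ratio of means was 2.13 and the change 1.08 (SE 0.36, n = 3 each), which did not pass with limma (adjusted p = 0.0946; exact permutation p = 0.1, the smallest possible). Adipocyte markers moved the same way: their list averaged 10.14 to 10.31 in knockout libraries and 8.40 to 9.07 in control libraries, with 7 of 7 genes called higher. Endothelial markers averaged 4.96 to 5.38 in knockout libraries and 4.15 to 4.57 in control libraries, with 5 of 7 called higher, and macrophage markers 7.81 to 8.05 in knockout libraries and 8.37 to 8.61 in control libraries, with 3 of 5 called lower. Over all genes tested in eWAT, 14.9% were called in either direction. The part of these markers in the eWAT values was not tested.

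Ngfr was low in every set, with 14 to 164 reads per CPM library. In sWAT it had 1.19, 1.60 and 1.01 CPM in knockout libraries, against 1.88, 1.63 and 1.96 CPM in control libraries. Each knockout library was below each control library, as for 12.3% of all genes tested in sWAT, though the nearest libraries of the groups were 1.60 and 1.63 CPM (change -0.32, SE 0.17, limma adjusted p = 0.557). The groups overlapped in the other sets. Ngfr had 2.57, 1.24 and 2.29 CPM in ieWAT knockout libraries and 0.663, 1.00 and 3.02 CPM in ieWAT control libraries (change 0.33, SE 0.35). In BAT the knockout libraries had 1.17 and 2.01 CPM and the control libraries 0.659, 1.44 and 1.47 CPM (0.25, SE 0.28). In isWAT the values were 0.875 and 1.61 CPM in knockout libraries and 2.85, 1.04 and 3.36 CPM in control libraries, and in eWAT 0.190, 0.743 and 0.149 FPKM in knockout libraries and 1.21, 0.278 and 0.518 FPKM in control libraries.

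Bdnf, the ligand of TrkB, was a low transcript throughout. In ieWAT it had 1.86, 1.84 and 1.42 CPM in knockout libraries, against 1.378, 1.00 and 1.21 CPM in control libraries. Each knockout library was above each control library there, as for 3.43% of all genes tested (change 0.30, SE 0.17, n = 3 each, limma adjusted p = 1.00). The eWAT libraries had the same order, with 0.638, 0.738 and 0.615 FPKM in knockout and 0.423, 0.245 and 0.188 FPKM in control libraries, a ratio of means of 2.33. That order held for 21.6% of all genes tested in eWAT. The Bdnf values in eWAT were below the filter (exact two-sided permutation p = 0.1, the smallest possible). Adipocyte markers were also higher in the eWAT knockout libraries, and their part in the Bdnf values was not tested. The 2 epididymal sets share no deposited control library, but whether they share animals is not stated.

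In subcutaneous and brown fat the Bdnf groups overlapped. In isWAT it had 2.52 and 4.71 CPM in knockout libraries and 2.57, 2.55 and 3.44 CPM in control libraries. In sWAT it had 2.65, 3.21 and 4.02 CPM in knockout libraries and 4.47, 3.93 and 3.79 CPM in control libraries (change -0.25, SE 0.16, limma adjusted p = 0.621). In BAT only 6 reads were counted in each knockout library and 8 to 14 in each control library, too few to show a difference (log2 difference -0.25, exact permutation p = 0.3).

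S100b differed far more between depots than between genotypes. BAT libraries had 241 and 233 CPM in knockout and 265, 268 and 239 CPM in control mice, overlapping by the lowest control library (change -0.12, SE 0.11, limma adjusted p = 0.531; 0.091 with TMM scaling, so the direction flips). In sWAT it had 14.8, 13.1 and 8.24 CPM in knockout libraries and 14.4, 24.9 and 20.1 CPM in control libraries. The sWAT groups overlapped at the first control library, and the change of -0.67 (SE 0.26, n = 3 each) had an unadjusted p of 0.0362 and a limma adjusted p of 0.486. In isWAT both knockout libraries, with 15.3 and 14.8 CPM, were below the control libraries at 19.9, 23.3 and 15.9 CPM. That order held for 19.4% of all genes tested in isWAT, and no test was made.

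The epididymal sets held little S100b. In ieWAT it had 2.63, 3.62 and 2.50 CPM in knockout libraries and 2.93, 3.11 and 3.68 CPM in control libraries (change -0.12, SE 0.18). In eWAT it had 0.632, 2.27 and 1.24 FPKM in knockout libraries and 1.09, 1.11 and 1.44 FPKM in control libraries (change 0.051, SE 0.25, limma adjusted p = 0.909). The groups overlapped in both.

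Sox10 was low and did not follow S100b. Its highest group means were in isWAT, with 2.89 and 4.25 CPM in knockout libraries and 1.59, 2.94 and 2.01 CPM in control libraries, which overlapped. Outside isWAT it had 2 to 28 reads per CPM library and stayed below the filter. There it had 0.588, 0.301 and 0.275 CPM in ieWAT knockout libraries against 0.281, 0.0542 and 0.302 CPM in control libraries, and 0.757, 0.419 and 0.943 CPM in sWAT knockout libraries against 0.424, 1.63 and 1.10 CPM in control libraries. BAT knockout libraries had 0.554 and 0.936 CPM, against 1.32, 0.941 and 0.420 CPM in control libraries. All these groups overlapped, with exact two-sided permutation p of 0.5 in ieWAT, 0.4 in sWAT and 0.8 in BAT. In eWAT the values were 0.00996 to 0.128 FPKM in knockout and 0.0808 to 0.109 FPKM in control libraries.

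Th was not detectable at this depth in most libraries. In BAT the knockout libraries held 0 and 2 reads and the control libraries 0, 0 and 1 read. In isWAT the knockout libraries held 0 reads each and the control libraries 1, 0 and 0 reads. All 6 sWAT libraries held 0 reads, and all 6 eWAT libraries are listed at 0, while Th was not analysed in ieWAT. A count of 0 allows up to 3 reads, which is 0.0615 to 0.222 CPM across the CPM libraries and covers counting error only. Th therefore gave no level to compare between genotypes. Whether the receptors, the ligand and the glial genes reflect the amount of innervation was not tested.

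**Figure D2:**
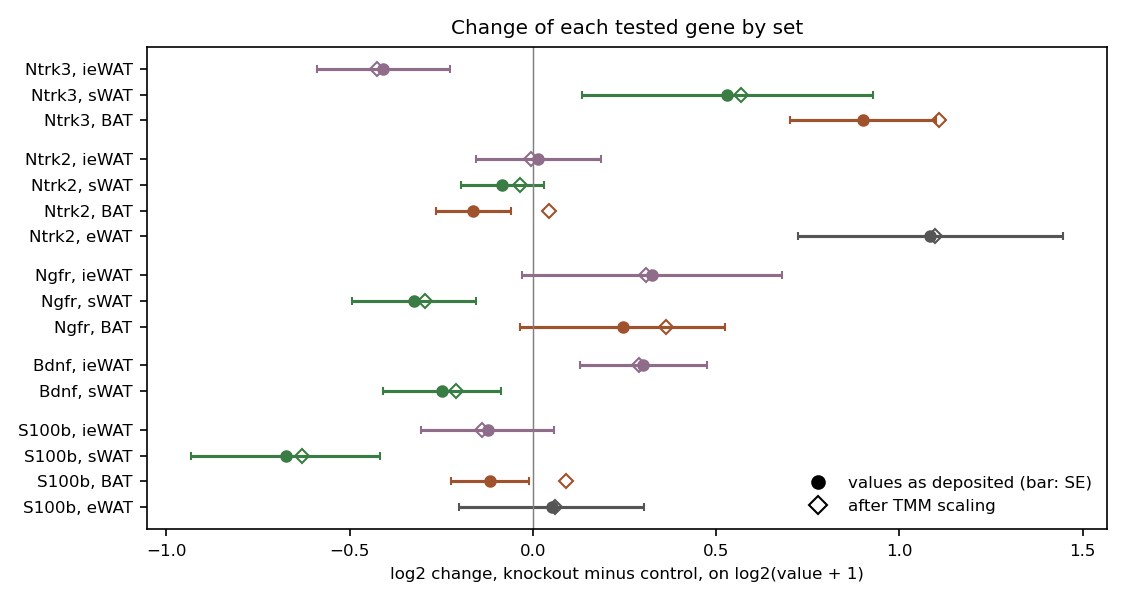
Log2 change (knockout minus control) of each gene in each set where it was tested, with isWAT left out. Filled points are the values as deposited with bars of 1 standard error, and open diamonds the same after TMM scaling. Ntrk3 lies at 0.90 in BAT and at -0.41 in ieWAT, Ntrk2 at 1.08 in eWAT, and Ntrk2 and S100b in BAT cross 0 with TMM scaling.

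The level of each gene was next ordered over the 8 groups of the CPM sets. The tables were scaled separately to their own totals, so these orders compare shares of each library's reads. For Ntrk3, knockout BAT (144 ± 44.3 CPM, n = 2) stood above control BAT (75.1 ± 6.49 CPM, n = 3) and control isWAT (12.1 ± 2.94 CPM, n = 3), and neither step overlapped. Control isWAT overlapped knockout sWAT through 1 knockout library. Below, sWAT and ieWAT groups ran from 3.53 to 6.22 CPM, and knockout isWAT was last at 3.42 ± 0.525 CPM (n = 2), overlapping control sWAT. The highest group mean was 42.1 times the lowest, and control BAT was 21.3 times control sWAT.

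S100b had its 2 BAT groups on top, knockout at 237 ± 5.51 CPM (n = 2) and control at 257 ± 16.2 CPM (n = 3), which overlapped. Subcutaneous groups followed at 12.1 to 19.8 CPM and ieWAT groups at 2.92 to 3.24 CPM, with no overlap between these 3 tiers. The highest group mean was 88.3 times the lowest, and control BAT was 13.0 times control sWAT. Sox10 had no such tier in BAT: its BAT groups, at 0.745 CPM in knockout and 0.893 CPM in control libraries, overlapped the sWAT groups, at 0.706 CPM in knockout and 1.05 CPM in control libraries. S100b and Sox10, both used as Schwann cell markers, thus had different orders over the depots.

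Ntrk2 spanned only a 1.59-fold range of group means. Subcutaneous groups, at 265 to 290 CPM, lay above BAT and ieWAT groups, at 182 to 214 CPM, without overlap. Bdnf was highest in subcutaneous groups (2.86 to 4.07 CPM), lower in ieWAT (1.71 CPM in knockout and 1.20 CPM in control libraries) and lowest in BAT (0.385 CPM in knockout and 0.663 CPM in control libraries), a 10.6-fold range. Ngfr group means lay between 1.19 and 2.42 CPM, and each overlapped its neighbour in the order. Per kilobase of merged exon in GENCODE M21, control BAT had 173.5 CPM of S100b, 11.1 CPM of Ntrk2 and 2.49 CPM of Ntrk3, so the level of S100b exceeded that of both receptors on this scale.

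The other neurotrophins and receptors were read from lists of pathway genes. Ntf3, the ligand of TrkC, averaged 1.95 CPM over the 22 libraries. In isWAT it had 1.35 and 2.14 CPM in knockout libraries and 2.36, 2.37 and 2.83 CPM in control libraries. Each knockout library was below each control library, as for 19.4% of all genes tested there, and no test was made. In BAT it had 0.861 and 2.21 CPM in knockout libraries against 2.17, 2.45 and 2.15 CPM in control libraries, which overlapped.

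Sorcs2, a sortilin family receptor for the neurotrophin precursors, was chosen after its values were seen. It had 21.8 and 16.0 CPM in BAT knockout libraries, against 5.08, 4.01 and 1.26 CPM in BAT control libraries. Both knockout libraries were above all controls, as for 6.37% of all genes tested in BAT (change 2.26, SE 0.46, limma adjusted p = 0.237). Values of Sorcs2 in the other sets are not reported here. The BAT libraries also differed in macrophage, fibroblast and muscle markers, whose part in the Sorcs2 values was not tested. Sort1, the related receptor sortilin, was below in both BAT knockout libraries, as were 38.1% of all genes tested there. It had 144 and 148 CPM against 160, 149 and 182 CPM in control libraries. The change (-0.16, SE 0.12, limma adjusted p = 0.444) was again close to the median of all genes.

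Over the 125 pathway genes, none passed in ieWAT (80 tested), sWAT (77) or BAT (68) with limma. Unadjusted p-values were under 0.05 for 3 in ieWAT, 8 in sWAT and 15 in BAT, where 2.62%, 9.66% and 19.2% of all genes had such values. In sWAT, 3 were above and 9 below every control library, where 3.8% and 12.3% of all genes were. In BAT, 5 were above and 26 below every control library, and the 26 are 38.2% of those tested, against 38.1% of all genes. Median changes of the pathway genes were 0.055 in ieWAT, -0.049 in sWAT and -0.24 in BAT, against 0.018, -0.048 and -0.18 for all genes tested. On recovered reads, edgeR called 0 of them in these 3 sets and DESeq2 called 0 in ieWAT, 1 in sWAT and 3 in BAT, against 32, 52 and 791 of all genes. Without the second control library, limma called 11 of them in BAT, and 2201 of all genes.

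Schwann lineage genes (18) and myelin genes (15) gave no call in ieWAT, sWAT or BAT. In BAT the 9 myelin genes tested had a median change of -0.61, with 5 below every control library, as were 38.1% of all genes tested there. The macrophage and fibroblast lists were also below every control library in these knockout libraries (differences of list means -2.28 and -1.15), and their part in the myelin values was not tested. Pmp22, a compact myelin protein also made outside nerve, had 42.0 and 38.3 CPM in BAT knockout libraries and 86.7, 44.2 and 85.8 CPM in control libraries (change -0.77, SE 0.32, limma adjusted p = 0.272). In isWAT, described without a test, 4 of 14 myelin genes were above and 0 below every control library, with a median of 0.54, where 12.2% of all genes were above and 19.4% below. The means of the whole myelin list overlapped, at 3.23 and 3.58 in knockout libraries and at 2.57, 3.24 and 2.96 in control libraries.

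**Figure D3:**
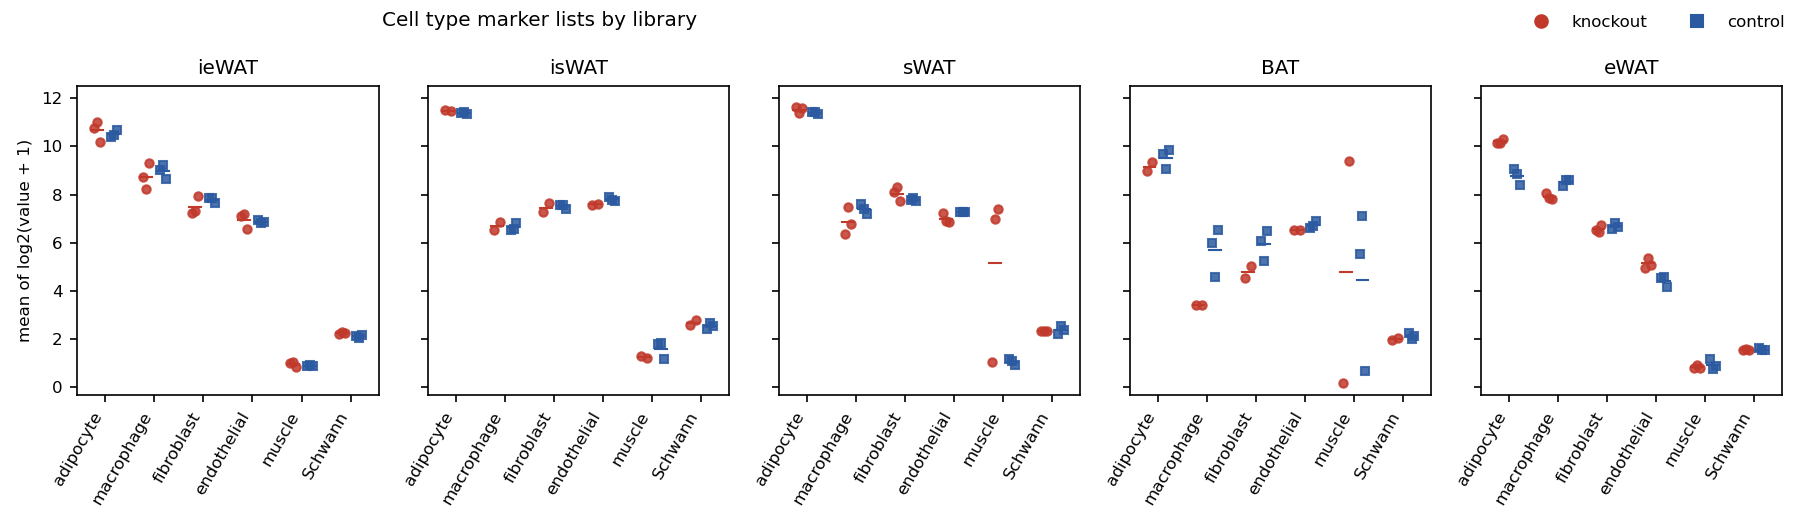
Mean log2(value + 1) of 6 marker lists in each library by depot set, with knockout left of control and a short line at the group mean. Macrophage markers in BAT lie at 3.40 and 3.44 in knockout libraries below 4.59 to 6.51 in control libraries, and adipocyte markers in eWAT at 10.14 to 10.31 in knockout libraries above 8.40 to 9.07 in control libraries.

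In eWAT, 19 of 62 pathway genes tested passed with limma, 14 higher and 5 lower in libraries labelled knockout. That is 30.6%, against 14.9% of all genes tested. Of the 62, 23 were above every control library in every knockout library and 13 below, as were 21.6% and 19.6% of all genes. Their adjusted p ran from 0.0122 to 0.0473, and none of the 19 had overlapping groups. Without the third knockout library none of the 19 passed (adjusted p from 0.0692 to 0.163), though each kept its direction, and calls over all genes were 12 there, against 2041 with all libraries. With the second deposited eWAT table, in TPM, 0 of the 19 passed and 1 of all genes. With no filter on low values, 5 of the 19 passed and 544 of all genes.

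Transport and breakdown of noradrenaline were represented by Slc22a3 and Maob, both higher in eWAT knockout libraries. Slc22a3, an organic cation transporter that takes up noradrenaline, had 24.7, 31.8 and 21.8 FPKM in knockout libraries and 13.6, 12.4 and 7.51 FPKM in control libraries (1.18, SE 0.23, limma adjusted p = 0.0235). Maob, a monoamine oxidase, had 12.2, 16.6 and 13.9 FPKM in knockout libraries and 9.28, 8.87 and 7.13 FPKM in control libraries (0.69, SE 0.14, limma adjusted p = 0.0243). The adipocyte list was higher in the same libraries, and its part in these values was not tested.

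Receptors and storage genes went in both directions in eWAT. Slc18a2, the vesicular monoamine transporter, fell to 0.349, 1.44 and 0.250 FPKM in knockout libraries, against 1.92, 3.58 and 3.78 FPKM in control libraries (-1.32, SE 0.31, limma adjusted p = 0.0361). Adra1d, an alpha-1 adrenergic receptor, rose by 0.98 (SE 0.19, limma adjusted p = 0.0235). Adrb3, the main beta receptor of adipocytes, had 38.0, 8.18 and 31.8 FPKM in knockout libraries and 5.77, 7.82 and 6.74 FPKM in control libraries. The second of these knockout libraries lay close to the controls, and the change of 1.55 (SE 0.58) did not pass with limma (adjusted p = 0.129). Adipocyte markers were higher and macrophage markers lower in the same knockout libraries. The part of these or other cells in the Slc18a2, Adra1d and Adrb3 values was not tested.

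Syp, the synaptic vesicle protein synaptophysin, had the largest rise among the 19. It reached 26.2, 20.2 and 24.8 FPKM in eWAT knockout libraries, against 9.55, 9.32 and 6.86 FPKM in control libraries (change 1.37, SE 0.15, limma adjusted p = 0.0122). None of the other 3 axon and neuron genes tested passed. Uchl1, a neuronal ubiquitin hydrolase, had 8.55, 12.7 and 12.1 FPKM in knockout libraries and 29.0, 29.8 and 102 FPKM in control libraries (-1.93, SE 0.52, limma adjusted p = 0.0642), with the third control library far above the rest. In the CPM sets Syp had group overlap in ieWAT, isWAT and sWAT. In BAT it was lower, at 21.8 and 22.5 CPM in knockout against 33.6, 24.9 and 35.9 CPM in control libraries (-0.47, SE 0.17, limma adjusted p = 0.241). Both BAT knockout libraries were below all controls, as for 38.1% of all genes tested there.

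Among guidance factors, the semaphorins Sema3c, Sema3g (change 0.72) and Sema3f (0.64) rose in eWAT and Nrp2, a semaphorin co-receptor, fell. Sema3c had 32.4, 21.9 and 37.0 FPKM in knockout libraries and 14.2, 14.9 and 9.82 FPKM in control libraries (change 1.16, SE 0.23, limma adjusted p = 0.0232). Nrp2 had 25.3, 28.5 and 25.2 FPKM in knockout libraries and 34.7, 43.2 and 46.0 FPKM in control libraries (-0.62, SE 0.12, limma adjusted p = 0.0220). In sWAT the same 2 genes were non-overlapping in the same directions without passing: Sema3c had 133, 126 and 144 CPM in knockout libraries and 103, 104 and 94.1 CPM in control libraries (0.41, SE 0.079), and Nrp2 had 68.9, 80.6 and 68.3 CPM in knockout libraries and 102, 95.0 and 89.5 CPM in control libraries (-0.39, SE 0.089; limma adjusted p = 0.447 for each). Over all genes tested in sWAT, 3.8% were above every control library and 12.3% below. Sema3c lay the other way in BAT, at 4.37 and 10.6 CPM in knockout libraries and 13.6, 11.0 and 28.6 CPM in control libraries. That order held for 38.1% of all genes tested in BAT.

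Other calls in eWAT were the neurotrophin receptor Sort1 (change 0.36), the adaptors Ptpn11 (0.47), Maged1 (0.40) and Shc2 (-0.72), the proteolipid Pllp (1.04), the matrix protein Matn2 (0.62), the membrane glycoprotein Gpm6b (-0.86) and the heat-activated channel Trpv1 (0.60). Of the 8 Schwann lineage genes tested, 2 passed, Matn2 higher and Gpm6b lower. Sox10, at 0.00996 to 0.128 FPKM in knockout and 0.0808 to 0.109 FPKM in control libraries, was below the filter in eWAT with overlapping groups.

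**Figure D4:**
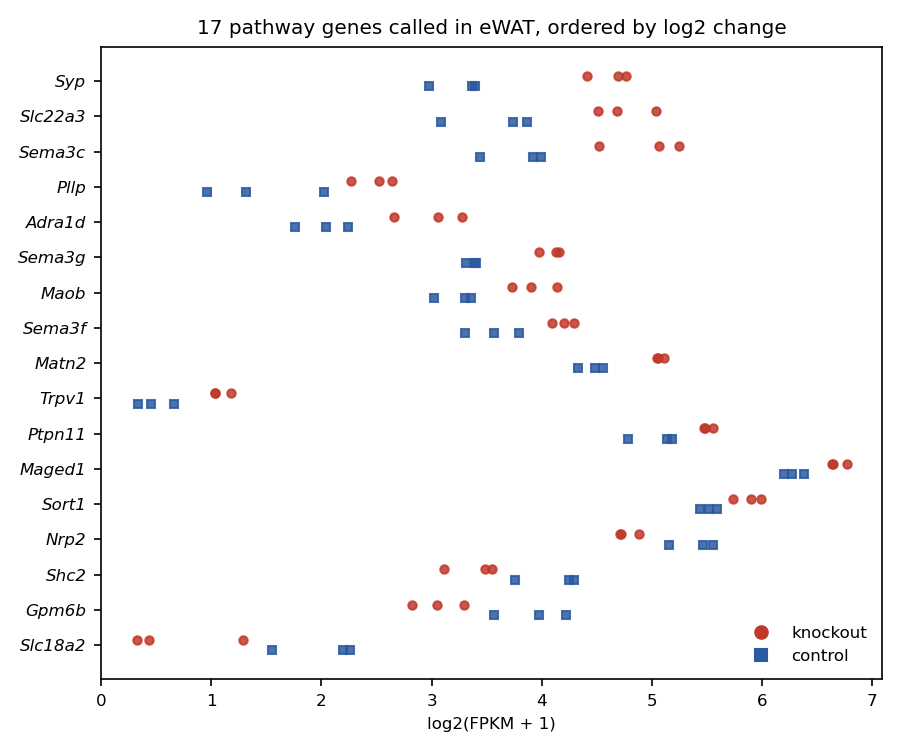
Values of 17 pathway genes that passed with limma in eWAT, with 1 point per library on the log2(FPKM + 1) axis and genes ordered from the highest change (Syp, 1.37) to the lowest (Slc18a2, -1.32). Knockout points lie right of all control points for 13 genes and left of them for 4.

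For each gene, the pattern of the 22 CPM libraries around their own group means was compared with 12576 genes tested in all 4 CPM sets, by Pearson correlation on the log2(value + 1) scale. The libraries of a set share their scaling and cell mixture, and the highest of many correlations is large by selection. Nearest to Ntrk3 were Zbtb24 (r = 0.868), Lhfpl4 (0.843) and Tax1bp3 (0.842). Nearest to Ntrk2 were Casz1 (0.865), Ppip5k1 (0.860) and Adhfe1 (0.851), and nearest to Ngfr were Nol4l (0.857), Dusp4 (0.829) and Smg5 (0.795). Nearest to Bdnf were Arfgef2 (0.831), Abhd15 (0.827) and Pter (0.812). Nearest to S100b were Pcsk6 (0.893), Mogat1 (0.836) and Nrg4 (0.825), the last a gene of the guidance and nerve-directed list. Nearest to Sox10, which was below the filter outside isWAT, were Drp2 (0.831), Gm43597 (0.801) and a gene without a symbol (0.786). Drp2 is a gene of the myelin list. No gene of the Schwann lineage or myelin lists was among the 3 nearest to S100b. The search left out part of both lists, since only 10 of 18 Schwann lineage and 9 of 15 myelin genes were tested in ieWAT. The absence therefore says little about S100b.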

How the data were processed

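Bulk RNA-seq tables of 28 adipose libraries were used, 1 table per depot set. Per the submitters' processing notes, the authors' tools were DESeq2 1.38.3, Salmon, MultiQC and FastQC, with no role given. Build and annotation: not given in the sources used here. The 4 deposited tables of ieWAT, isWAT, sWAT and BAT are named as FPKM but hold CPM: over 99.9% of values were whole multiples of 1 read within 0.01 reads, with no division by length. The deposited eWAT table holds FPKM. One more deposited table, called raw counts, has TPM values of the eWAT samples and was used only as an alternative added after seeing the data. The last deposited table, a rescaling of that one, was not used.

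Ensembl identifiers were matched to symbols of GENCODE M21 (GRCm38), at 92.0% (96.0% in ieWAT). Each set was fitted alone with limma 3.58.1 in R 4.3.3 (two-sided; lmFit, then robust eBayes with a trend) on log2(value + 1), without a replicate block. Genes were kept where at least the smaller group's number of libraries reached a value of 1, with Benjamini-Hochberg adjustment over all of them and a threshold of 0.05. The count tests edgeR 4.0.16 and DESeq2 1.42.0 were run on the recovered reads as alternatives. Genes below the filter were compared by exact permutation (two-sided), which cannot give a p under 0.1 here. The fits were tested on simulated data with planted changes and an assumed spread, without genes of very low level. That test does not show how the fits perform on low or more variable genes. The 7 genes and the lists were chosen with earlier results of these data known.

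Genes named are Fgf13, the 7 genes, pathway genes called in a set, up to 3 of each pathway list with the highest mean CPM, and the 3 genes most like each of the 7; other names are said to be chosen after their values were seen. Alternatives were pseudocounts of 0.1 and 0.5, no filter or a filter at 0.3, TMM scaling, plain eBayes, each library left out in turn, the replicate number as a block, and the count tools. Some genes that this rule names are not reported here, though the counts over lists hold them.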

Additional observations from a re-analysis of the deposited data

Results flagged for a closer look

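Ntrk3 lay in opposite directions between depot sets. Every knockout library was above every control library in BAT (log2 difference 0.90), and every knockout library was below every control library in ieWAT (-0.41) and isWAT (-1.55). Over all genes tested, 6.37% were above in this way in BAT, and 1.68% in ieWAT and 19.4% in isWAT were below. The isWAT value is the one that chose the gene. The difference between sets was not tested. The BAT value stayed positive under all its alternatives, and the BAT libraries also differ in macrophage and fibroblast markers, whose part was not tested.

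Ntrk2 lay above the control libraries in each eWAT knockout library (log2 difference 1.08) and below them in each BAT knockout library (-0.16). Both orders were common, with 21.6% of all genes tested above in eWAT and 38.1% below in BAT. The difference between these sets was not tested either, the 2 sets are in different units, and the BAT direction flips with TMM scaling (0.044).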

How the results depend on the processing

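Outside isWAT, 25 changes of these genes were recomputed in 319 comparisons: 300 kept the sign of the change and 19 did not. Of the 16 tested changes, 5 changed sign, in 12 of 233 comparisons. Of the 9 below the filter, 4 did, in 7 of 86 comparisons (Sox10 in BAT and eWAT, Th in BAT and Ntrk3 in eWAT). Changed in sign were Ntrk2 in BAT (0.044 with TMM, 0.039 with edgeR, 0.037 with DESeq2), S100b in BAT (0.091 with TMM, 0.083 with edgeR, 0.080 with DESeq2) and Ntrk2 in ieWAT (-0.0062 with TMM). Leaving out 1 library gave -0.155 to 0.165 for Ntrk2 in ieWAT, -0.17 to 0.0065 for Ntrk2 in sWAT and -0.21 to 0.29 for S100b in eWAT. DESeq2 made the BAT change of Ntrk3 pass (1.14). The cause was not tested. DESeq2 called 1 of the 7 genes in BAT, and 1 pathway gene in sWAT and 3 in BAT. Over all genes it called 0.377% in sWAT and 5.98% in BAT. Calls in isWAT, where the gene set was chosen, are not given. With 1 library left out, pathway genes called ran from 0 to 11 in BAT and from 0 to 19 in eWAT. Of the 19 eWAT calls, 5 were shared with no filter, 0 with the replicate block and 0 with the TPM table, where calls over all genes were 544, 0 and 1. The replicate block called 0 of the 7 genes and 0 pathway genes in ieWAT, sWAT and BAT. Same-numbered libraries deviated together with r from -0.56 to 0.39 over 13 pairs and in no set with every pair above 0.1. With so few libraries a group, the deviations from a group mean constrain each other. These correlations therefore cannot show whether the numbers pair the samples. Across these settings, calls over all genes in BAT ranged from 0 to 2201, in eWAT from 0 to 2131, in sWAT from 1 to 120 and in ieWAT from 0 to 32. Depth limits Sox10, Th and, in BAT, Bdnf.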
